A study of Mus musculus with 41 samples.

Results

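The region described here is a 200 kb stretch of mouse chromosome 1 around Col6a3, and its members are the peaks of 8 chromatin immunoprecipitation (ChIP-seq) peak lists whose centre lay between 92600000 and 92800000 (build mm9). It held 85 of the 155773 peaks in all lists. Col6a3 itself takes up about 77.2 kb, from about 92663400 to 92740600, with 63.4 kb beyond its 3′ end and 59.4 kb upstream of its start. The gene lies on the minus strand, so larger coordinates are upstream. The region was selected on its many peaks in the Runx2 lists. Peak numbers in the Runx2 lists are therefore a description, and no test was made on them or on any quantity drawn from the same peaks.

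Col6a3 encodes the alpha-3 chain of collagen VI, a collagen that assembles with the alpha-1 and alpha-2 chains into beaded microfilaments. Collagen VI surrounds chondrocytes as part of the pericellular matrix and is also made by fibroblasts and by cells of muscle, tendon and bone surfaces. Runx2 is the runt-family transcription factor required for osteoblast formation and for chondrocyte hypertrophy. Foxa2 is a forkhead factor of hypertrophic chondrocytes, and Jun is a subunit of the AP-1 factor.

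Runx2 was precipitated through a FLAG tag from C57BL/6 mice with the Runx2-BioFL/+ knock-in at postnatal day 1 (rib chondrocytes, 2 libraries; calvarial osteoblasts, 2 libraries). Foxa2 was precipitated from wild-type C57BL/6 rib chondrocytes and Jun from wild-type C57BL/6 calvarial osteoblasts of the same age (1 library each). The same FLAG precipitation was made in the fibroblast line 3T3 overexpressing Runx2BioFL or, as the control for background, green fluorescent protein (GFP). These cells were taken at day 0 and after 3 days in osteogenic medium, each as 1 library. The medium held BMP-2 at 100 ng/ml, β-glycerophosphate at 10 mM and ascorbic acid phosphate at 50 µg/ml. What promoter drove the 3T3 transgenes, and whether the cells were 1 clone, is not given in the sources used here. Chondrocytes came from ribs and osteoblasts from calvaria by dissection and digestion, so effects of cell type and of skeletal site cannot be told apart. Peak positions hold no marker values with which to check the labelled cell types.

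Each group had 1 peak list with positions alone, so no value has a replicate error and read depth was not given. Intervals are 95% intervals and cover counting error only; neighbouring peaks share their libraries and are not independent. The labels of 2 lists were crossed: the list named for 3T3 Runx2 day 0 was tied to the GFP day 3 sample, and the list named for 3T3 GFP day 3 to the Runx2 day 0 sample. Both are used under their own names, and every statement on either depends on which is right.

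Of the members, 66 were Runx2 peaks by the names of the lists. The lists gave 16 peaks for chondrocyte Runx2, 6 for osteoblast Runx2, 13 in the list named for 3T3 Runx2 day 0 and 31 for 3T3 Runx2 day 3. There were 10 Foxa2 peaks and 8 Jun peaks. The GFP controls gave 1 peak at day 0 and 0 in the list named for day 3. Few GFP peaks are usual at this scale: 82.2% of the 9042 tiles of 200 kb that held any peak had 0 peaks of GFP day 0, and 47.0% had 0 of the list named for GFP day 3.

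**Figure D1:**
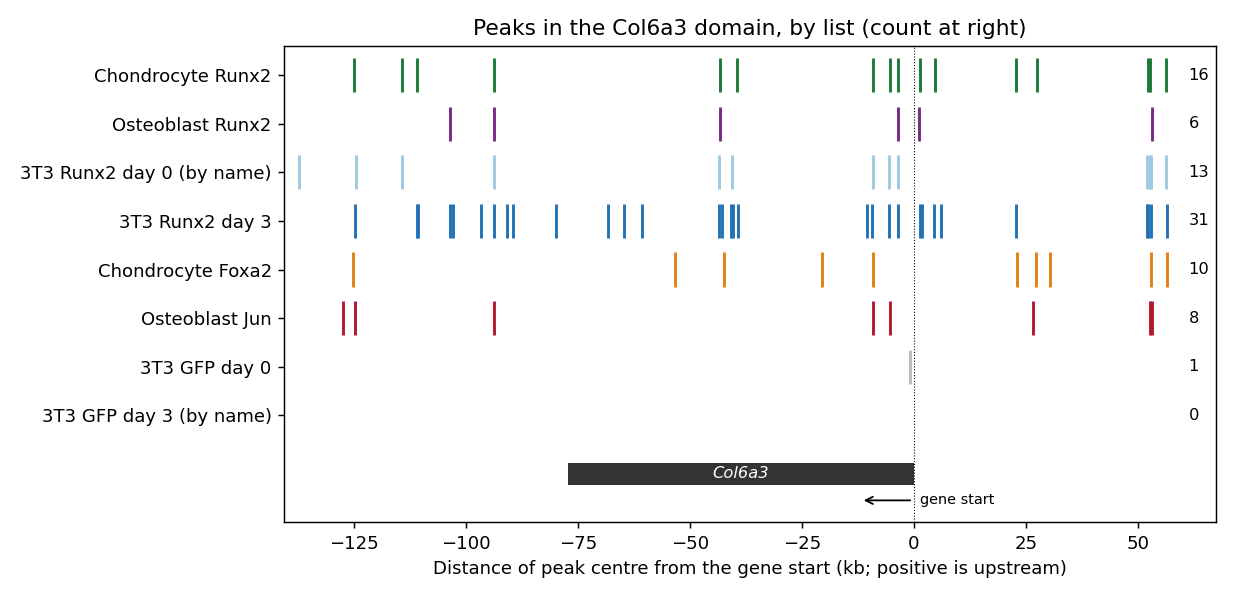
Position of every member peak, by list (rows), as the distance of its centre from the Col6a3 gene start in kb; the bar is the gene, the arrow its direction, and the number at the right is the count in the list. The 31 peaks of 3T3 Runx2 at day 3 run over both flanks and the gene, whereas the lists named for GFP hold 1 and 0.

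The lists differ in size, so each count was set against the mean of its own list over these tiles. Chondrocyte Runx2 stood furthest above its mean, at 9.40 times (95% Poisson interval 5.37 to 15.3), with 16 peaks against a mean of 1.70. Osteoblast Runx2 was at 5.30 times its mean (1.94 to 11.5), the list named for 3T3 Runx2 day 0 at 3.79 times (2.02 to 6.48) and 3T3 Runx2 day 3 at 5.59 times (3.80 to 7.93). Foxa2 was at 6.14 times its mean (2.94 to 11.3) and Jun at 4.84 times (2.09 to 9.54). These intervals overlap one another, and the density of the Runx2 lists was what the region was chosen for.

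**Figure D2:**
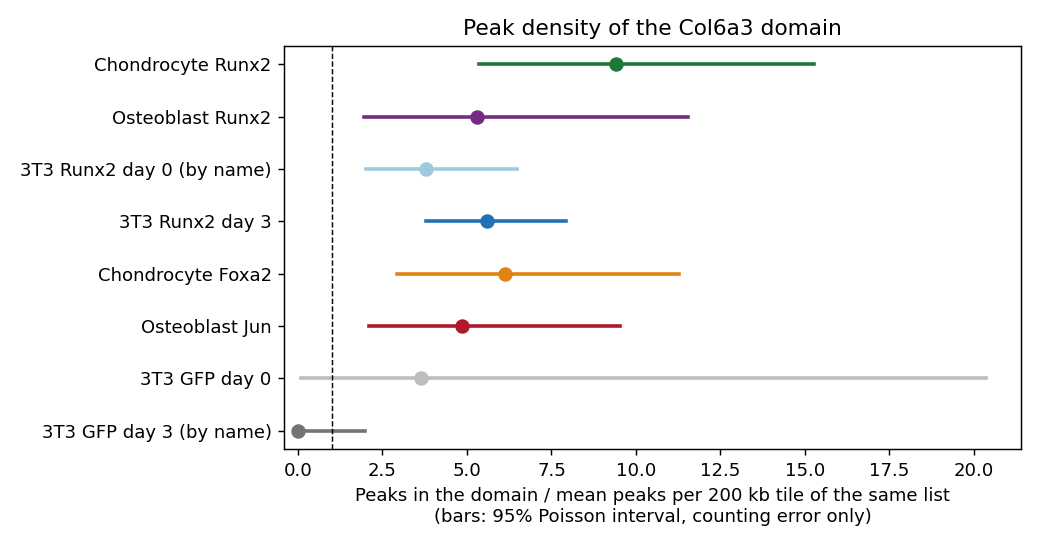
Peaks in the Col6a3 region divided by the mean number per 200 kb tile of the same list, with 95% Poisson intervals as bars and the list mean as the dashed line. Chondrocyte Runx2 is at 9.40 and the list named for 3T3 GFP day 3 at 0.

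Among all tiles, 0.0442% held at least 16 chondrocyte Runx2 peaks (4 of 9042, the Col6a3 tile included), and 2 held more. At least 31 peaks of 3T3 Runx2 day 3 were found in 0.907% of tiles, and at least 10 Foxa2 peaks in 0.763%. The region ranked lower in the other lists. At least 6 osteoblast Runx2 peaks were found in 2.69% of tiles, at least 8 Jun peaks in 2.71%, and at least 13 peaks of the list named for 3T3 Runx2 day 0 in 5.11%. The shares of the Runx2 lists restate the density on which the region was selected, and nothing is read from any of these shares.

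**Figure D3:**
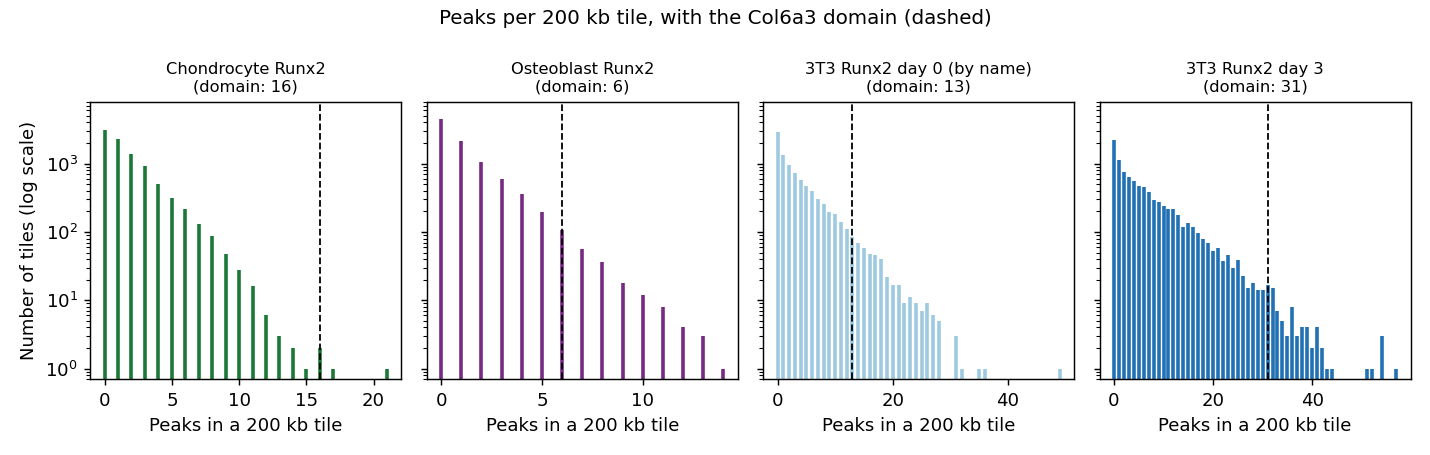
Number of 200 kb tiles (log scale) by the peaks they hold, for each Runx2 list, with the Col6a3 tile as the dashed line. The line lies at 16, near the end of the chondrocyte distribution (highest tile 21), and at 13, well inside that of the list named for 3T3 Runx2 day 0 (highest tile 49).

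The borders of the region did not coincide with a border of the peaks. The member nearest the lower end was a peak of the list named for 3T3 Runx2 day 0 (92603036 to 92603299, 3.2 kb inside), and the nearest peak outside was a Jun peak (92595141 to 92595386, 4.7 kb outside). At the upper end a 3T3 Runx2 day 3 peak lay 2.8 kb inside (92796971 to 92797342), and a chondrocyte Runx2 peak lay 1.0 kb outside (92800995 to 92801009). Both neighbouring tiles also held Runx2 peaks, with 9 and 8 for chondrocytes below and above the region, and 22 and 19 for 3T3 Runx2 day 3. In the list named for 3T3 Runx2 day 0 the Col6a3 tile held 13 peaks, fewer than each neighbour with 15.

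Runx2 peaks lay in both flanks and not only at the gene, but they were not evenly spaced. None lay between 92701509 and 92729912 in the gene, or between 92768238 and 92792542 upstream. Summed over the 4 Runx2 lists there were 24 peaks within the gene (3.11 per 10 kb), 20 in the 3′ flank (3.15 per 10 kb) and 22 in the upstream flank (3.70 per 10 kb). Chondrocyte Runx2 had 7 peaks upstream (1.18 per 10 kb), against 5 in the gene (0.648) and 4 in the 3′ flank (0.631). Foxa2 had 5 upstream, 4 in the gene and 1 in the 3′ flank. Osteoblast Runx2 had 2 peaks in each part, and Jun had 3 in each flank and 2 in the gene. Exons and introns are not given, since mm9 gene models were not used here; in the RefSeq gene order of GRCm38.p6 the neighbouring protein-coding genes are Cops8 and Mlph.

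No list had a peak on the gene start itself. The nearest was the GFP day 0 peak, which ended 629 bp inside the gene, and the nearest Runx2 peaks lay upstream, 1229 bp away in chondrocytes, 1179 bp in osteoblasts and 1224 bp in 3T3 cells at day 3. The list named for 3T3 Runx2 day 0 came no nearer than 3553 bp, inside the gene. The start is known here only to about 100 bases, which these distances exceed. The bases upstream of the start, which the peaks flank without covering, are shown from RefSeq (GRCm38.p6, chr1:90843972-90844221, minus strand, 5′ to 3′), with the 50 bases next to the gene start in capitals.
Col6a3 upstream 250 bases: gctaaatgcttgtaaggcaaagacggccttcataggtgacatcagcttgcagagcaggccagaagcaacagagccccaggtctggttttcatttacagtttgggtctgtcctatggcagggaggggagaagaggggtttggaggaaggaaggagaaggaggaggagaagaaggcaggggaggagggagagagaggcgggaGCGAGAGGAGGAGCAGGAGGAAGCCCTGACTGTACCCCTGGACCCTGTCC

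On both strands of these bases there was no match to the RUNX letters TGTGGT or TGCGGT, the AP-1 letters TGANTCA or the FOX letters TGTTTAC. Of 27025 upstream sequences of the same length, 14.2% held TGTGGT, 5.06% TGCGGT, 6.87% TGANTCA and 3.09% TGTTTAC. The absence of these letters from 250 bases says nothing of the factors elsewhere. Sequence beneath the peaks was not used here, since no genome of the same build was at hand.

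Joining peaks that overlapped by at least 1 bp gave 45 sites. Of these, 36 held a Runx2 peak of some list (80.0%, beside 71.3% of all sites of the series) and 27 held a single list (60.0%, beside 61.1%). By the names of the lists, 20 of the 36 Runx2 sites were of 1 Runx2 list, 7 of 2, 5 of 3 and 4 of all 4. These were shares of 55.6%, 19.4%, 13.9% and 11.1%, and over the whole series the shares were 55.7%, 28.4%, 10.2% and 5.75%. Neighbouring Runx2 sites were 2679 bp apart at the median, and 12 of the 35 gaps were under 1 kb. The region was chosen for its many Runx2 peaks, and this spacing was not set against that of the whole series. The widest gap, 28402 bp from 92701509 to 92729912, lay within the gene, and the 1 peak inside it was of Foxa2 (92720125 to 92720261).

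**Figure D4:**
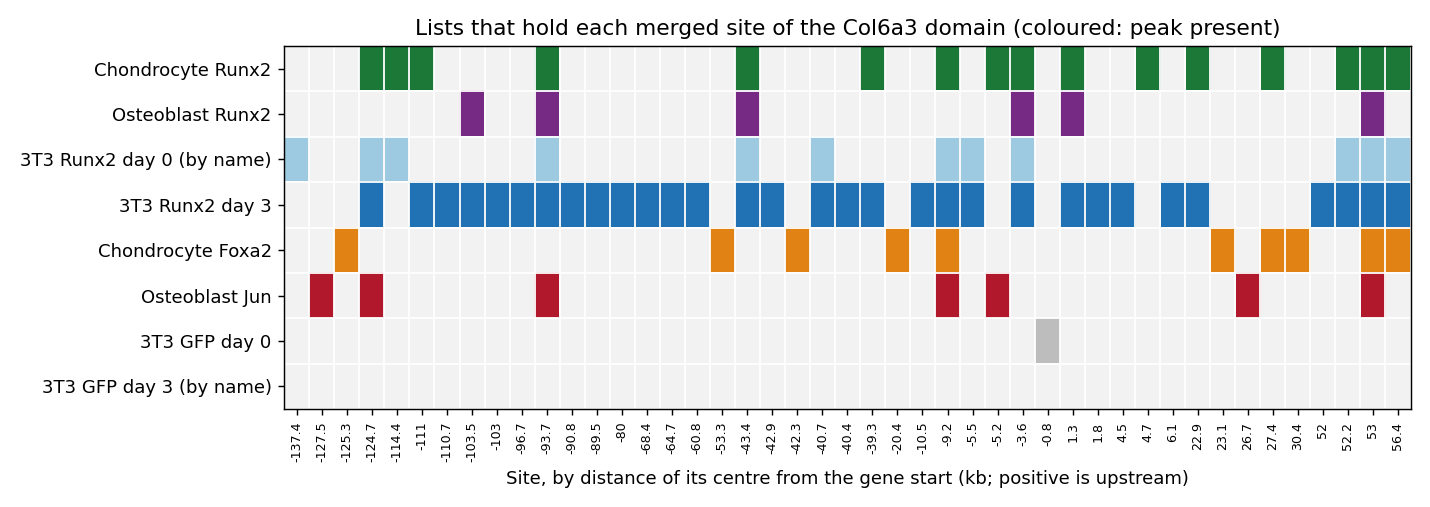
Each of the 45 merged sites (columns, by distance of the centre from the gene start in kb) with the lists that hold it coloured (rows). By the names of the lists, sites of all 4 Runx2 lists stand at 93.7, 43.4 and 3.6 kb on the gene side of the start. Another stands 53.0 kb upstream.

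With the crossed lists exchanged, 3T3 Runx2 day 0 has 0 peaks here, and no site is then of all 4 Runx2 lists. By the names of the lists, the sites of all 4 were spread over both flanks and the gene. The first lay in the 3′ flank, 93.7 kb from the gene start (92646771 to 92646992, 222 bp), and a Jun peak was in it as well. Its 5 peaks had centres within 62 bp of each other. The next 2 lay in the gene, 43.4 kb from the start (92697093 to 92697332, 240 bp) and 3.6 kb from it (92736883 to 92737099, 217 bp), with centres within 73 and 57 bp. Neither held Foxa2, Jun or GFP.

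The last site of all 4 Runx2 lists was of another form. It lay 53.0 kb upstream (92793074 to 92794046), was 973 bp wide and joined 8 peaks of 6 lists end to end, with centres up to 633 bp apart. Its chondrocyte Runx2 peak (92793074 to 92793513) and its osteoblast Runx2 peak (92793807 to 92794046) did not overlap each other. Foxa2 (92793424 to 92793659) overlapped the chondrocyte peak and lay 147 bp from the osteoblast peak. Of the 2 Jun peaks there, the lower (92793260 to 92793346) overlapped the chondrocyte Runx2 peak and the upper (92793856 to 92793965) the osteoblast Runx2 peak. At the resolution of these lists, chondrocyte and osteoblast Runx2 thus had separate peaks within this stretch.

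The compact sites stood early in most of the files. The peaks of the site 93.7 kb from the start were within the first 23.9% (chondrocyte Runx2), 17.8% (osteoblast Runx2), 5.34% (list named for 3T3 Runx2 day 0), 5.13% (3T3 Runx2 day 3) and 11.3% (Jun) of their lists. Those of the site at 43.4 kb were within the first 12.6%, 18.7%, 11.4% and 8.69% of the 4 Runx2 lists in the same order, and those of the site at 3.6 kb within the first 25.3%, 44.9%, 19.9% and 20.2%. At the wide upstream site the osteoblast Runx2 peak stood at 95.8%, the chondrocyte Runx2 peak at 54.8%, the 2 peaks of the list named for 3T3 Runx2 day 0 at 81.6% and 87.2%, and the 3T3 Runx2 day 3 peak at 35.7%. Its Foxa2 peak stood at 11.5% and its Jun peaks at 14.9% and 69.5%, so early and late peaks were joined there. How the files were ordered is not known here, so file position is given as a description only. At the median, members stood at 29.2% of the chondrocyte Runx2 list, 48.0% of osteoblast Runx2, 72.9% of the list named for 3T3 Runx2 day 0, 61.5% of 3T3 Runx2 day 3, 65.1% of Foxa2 and 42.2% of Jun.

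Chondrocyte and osteoblast Runx2 shared 4 sites by direct overlap of peaks. That was 4 of 16 chondrocyte peaks (25.0%, Wilson interval 10.2 to 49.5%; 29.9% of the whole list) and 4 of 6 osteoblast peaks (66.7%, 30.0 to 90.3%; 45.2% of the whole list). Beside the 3 compact sites, the fourth lay 1.3 kb upstream of the gene start, where an osteoblast peak of 62 bp (92741779 to 92741840) met a chondrocyte peak (92741829 to 92741953). The other 2 osteoblast peaks were the one at 53.3 kb upstream and one 103.5 kb from the start in the 3′ flank (92637004 to 92637292, 289 bp, the widest osteoblast peak of the region), which overlapped 3T3 Runx2 day 3. No osteoblast Runx2 peak of the region was without a partner in another list (0 of 6, against 21.7% of the whole list). Among chondrocyte peaks 1 of 16 was, 4.7 kb upstream (92745304 to 92745370), against 21.3% of the whole list.

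Most chondrocyte peaks of the region recurred in 3T3 cells carrying Runx2. At day 3 it was 11 of 16 (68.8%, 44.4 to 85.8%), beside 52.7% of the whole list, and in the list named for day 0 it was 9 of 16 (56.2%, 33.2 to 76.9%), beside 48.2%. For osteoblast Runx2 the counts were 5 of 6 at day 3 (83.3%, 43.6 to 97.0%; whole list 58.5%) and 4 of 6 in the list named for day 0 (66.7%, 30.0 to 90.3%; whole list 53.2%). All of these intervals hold the share of the whole list, which is no test, since they cover counting error only.

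Seen from 3T3 cells, overlap with chondrocyte Runx2 was above the share of the whole list. In the list named for day 0, 9 of 13 peaks overlapped chondrocyte Runx2 (69.2%, 42.4 to 87.3%), beside 27.2% of the whole list, and 4 of 13 overlapped osteoblast Runx2 (30.8%, 12.7 to 57.6%), beside 20.7%. At day 3, 11 of 31 overlapped chondrocyte Runx2 (35.5%, 21.1 to 53.1%), beside 18.4%, and 5 of 31 osteoblast Runx2 (16.1%, 7.09 to 32.6%), beside 14.1%. The 2 chondrocyte intervals lie above the share of the whole list and the osteoblast intervals hold it. The many chondrocyte peaks of the region, for which it was chosen, raise the number of possible partners, and the difference was not tested.

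**Figure D5:**
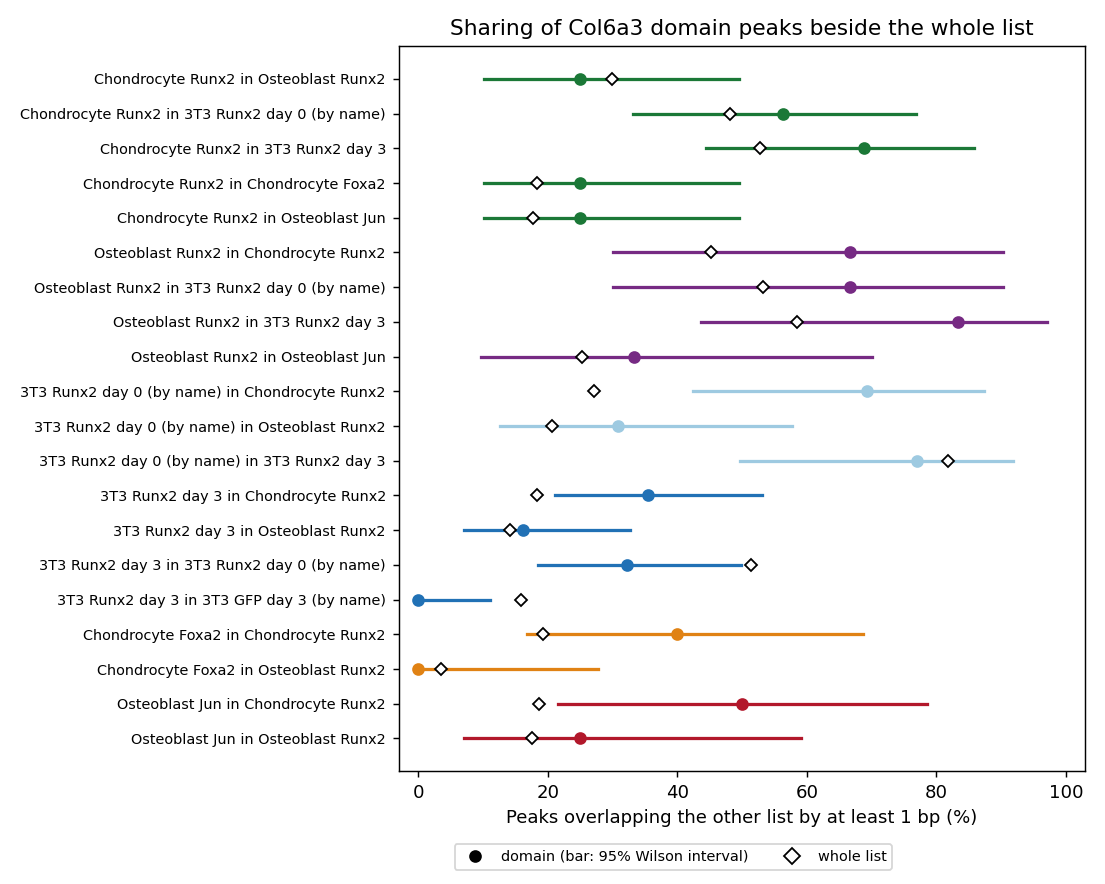
Share of the region's peaks that overlap another list by at least 1 bp (filled points, with 95% Wilson intervals) beside the share of the whole list (open diamonds), for 20 ordered pairs of lists. In 3T3 Runx2 day 3 the region has 32.3% of its peaks also in the list named for day 0, beside 51.4% of the whole list.

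By the names of the lists, 3T3 cells had 13 Runx2 peaks here at day 0 and 31 at day 3. Of the day 0 peaks, 10 of 13 overlapped a day 3 peak (76.9%, 49.7 to 91.8%; whole list 81.8%). Of the day 3 peaks, 10 of 31 overlapped a day 0 peak (32.3%, 18.6 to 49.9%; whole list 51.4%), which left 21 at day 3 only. Those 21 were later in the file, at a median of 74.4% of the list (34.9 to 97.1%), against 40.9% (5.13 to 62.4%) for the 10 on both days. A chondrocyte or osteoblast Runx2 peak was met by 5 of the 21 (23.8%, beside 9.91% of such peaks in the whole list) and by 7 of the 10 (70.0%, beside 38.4%). The whole list thus had the same order.

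Many of the peaks at day 3 only were in no other list. Of the 31 day 3 peaks, 16 were in no other list (51.6%, beside 38.4% of the whole list). Between 92649672 and 92679907, over the 3′ end of the gene, 6 neighbouring sites were of this list alone. The widest day 3 peak of the region, 406 bp (92729912 to 92730317), was also in no other list. Some day 3 peaks absent from the day 0 list were sites of primary cells. They include the site 1.3 kb upstream of the gene start (92741824 to 92742059), shared with chondrocyte and osteoblast Runx2, and the site 22.9 kb upstream (92763424 to 92763601), whose centre lay within 2 bp of that of the chondrocyte peak.

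The 3 peaks of the day 0 list with no day 3 peak stood at 77.0 to 87.2% of their file. They lay at 137.4 and 114.3 kb from the start in the 3′ flank and at 53.1 kb upstream. The second overlapped chondrocyte Runx2 and the third osteoblast Runx2. The widest peak of this list here, 459 bp (92796656 to 92797114), was 56.3 kb upstream and was met by chondrocyte Runx2, Foxa2 and 3T3 Runx2 day 3.

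Foxa2 had 10 peaks in the region, of which 4 overlapped chondrocyte Runx2 (40.0%, 16.8 to 68.7%; whole list 19.2%) and 0 overlapped osteoblast Runx2 (whole list 3.48%; a count of 0 among 10 peaks allows up to 30.0%). The same contact seen from Runx2 was 4 of 16 chondrocyte peaks (25.0%, 10.2 to 49.5%; whole list 18.3%). These sites lay 9.1 kb inside the gene (Foxa2 92731413 to 92731488) and 27.4, 52.9 and 56.6 kb upstream (92767808 to 92768126, 92793424 to 92793659 and 92797075 to 92797237). At an overlap of 50% of the shorter peak, 20% of the Foxa2 peaks met chondrocyte Runx2 and 12.5% of the chondrocyte Runx2 peaks met Foxa2. Shares of the whole lists were not computed at that overlap. The peak at 27.4 kb, 319 bp wide, was the widest Foxa2 peak of the region.

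Foxa2 also met Runx2 of 3T3 cells, at 3 of these 4 sites. The counts were 3 of 10 Foxa2 peaks for the list named for day 0 (30.0%, 10.8 to 60.3%; whole list 7.08%) and 3 of 10 for day 3 (30.0%, 10.8 to 60.3%; whole list 10.8%). From the other side, 4 of 13 peaks of the day 0 list met Foxa2 (30.8%, 12.7 to 57.6%; whole list 3.40%) and 3 of 31 day 3 peaks did (9.68%, 3.35 to 24.9%; whole list 3.24%). Each share was above that of the whole list, but the intervals cover counting error only and are no test. Few peaks stand behind these shares: the 4 peaks of the day 0 list fall on 3 Foxa2 peaks, and 3 of those 4 lie between 52 and 57 kb upstream. At 50% overlap the share of the day 0 list was 15.4%, and the share of the whole list was not computed at that overlap. The region's Foxa2 peaks, at 6.14 times their list mean, and its Runx2 peaks, for which it was chosen, raise the number of possible partners. The differences were not tested.

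The 6 Foxa2 peaks in no other list (60.0%, beside 72.8% of the whole list) lay 43 to 9650 bp from the nearest Runx2 peak. The region was chosen for its many Runx2 peaks, and such distances were not computed over the whole list. The closest peak lay 23.1 kb upstream (92763645 to 92763767), 43 bp from a 3T3 day 3 peak and 48 bp from a chondrocyte peak. The next lay at 125.3 kb in the 3′ flank (92615259 to 92615392), 203 bp from a chondrocyte peak. Another lay at 42.3 kb in the gene (92698213 to 92698329), 365 bp from a 3T3 day 3 peak. The others were 2705 bp (92770944 to 92771065), 7278 bp (92687186 to 92687355) and 9650 bp (92720125 to 92720261) from the nearest Runx2 peak. The Foxa2 peak at 23.1 kb and its chondrocyte Runx2 neighbour stood early in their files, at 6.36% and 3.64%.

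Jun had 8 peaks, and 6 of them overlapped Runx2 of some list (75.0%, beside 51.6% of the whole list). The counts were 4 of 8 for chondrocyte Runx2 (50.0%, 21.5 to 78.5%; whole list 18.6%), 2 of 8 for osteoblast Runx2 (25.0%, 7.15 to 59.1%; whole list 17.6%), and 3 of 8 each for the list named for 3T3 Runx2 day 0 (37.5%, 13.7 to 69.4%; whole list 34.0%) and for 3T3 Runx2 day 3 (37.5%, 13.7 to 69.4%; whole list 38.0%). Seen from Runx2, Jun met 4 of 16 chondrocyte peaks (25.0%, 10.2 to 49.5%; whole list 17.8%) and 2 of 6 osteoblast peaks (33.3%, 9.68 to 70.0%; whole list 25.3%). In 3T3 cells it met 3 of 13 peaks of the list named for day 0 (23.1%, 8.18 to 50.3%; whole list 18.7%) and 3 of 31 at day 3 (9.68%, 3.35 to 24.9%; whole list 13.1%). Jun was precipitated from osteoblasts, yet more of its peaks here met the chondrocyte list, which also held more peaks.

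The Jun sites fell on both sides of the gene start. In the 3′ flank they were the compact site at 93.7 kb (Jun 92646794 to 92646961), a site of chondrocyte and 3T3 Runx2 at 124.9 kb (92615598 to 92615780, the widest Jun peak, 183 bp) and a peak in no other list at 127.5 kb (92613031 to 92613130). In the gene, a peak at 9.0 kb (92731570 to 92731625) met the list named for 3T3 Runx2 day 0 and was 35 bp from the chondrocyte peak, and a peak at 5.2 kb (92735369 to 92735486) had its centre within 4 bp of that of a chondrocyte peak. Upstream there were the 2 peaks of the wide site and a peak in no other list at 26.7 kb (92767285 to 92767376). These 2 of 8 peaks in no other list were 25.0%, beside 40.6% of the whole list. No Foxa2 peak here overlapped Jun (0 of 10, which allows up to 30.0%). Such overlap was rare in the whole list too (1.87%). Peaks of both belonged to the joined sites 9.2 kb inside the gene and 53.0 kb upstream.

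The site 9.2 kb inside the gene (92731163 to 92731625, 463 bp) held chondrocyte Runx2, both 3T3 Runx2 lists, Foxa2 and Jun, and the nearest osteoblast Runx2 peak lay 5297 bp from its Jun peak. Its chondrocyte Runx2 peak (92731415 to 92731534) was at 6.14% of the list and its Jun peak at 3.71%. The Foxa2 peak was 76 bp wide and lay almost wholly within the chondrocyte Runx2 peak.

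The GFP controls gave 1 peak between them. At day 3, 31 Runx2 peaks stood against 0 in the list named for GFP, whose mean per tile was 1.86; a count of 0, which 47.0% of tiles share, allows up to 1.61 times that mean. With 0 peaks of the list named for GFP day 3 in the region, none of the 31 could overlap it (whole list 15.9%). None of the 31 overlapped the 1 peak of GFP day 0 (whole list 3.30%). At day 0, 13 Runx2 peaks stood against 1 in GFP, and 0 of the 13 overlapped it (whole list 4.37%). Overlap of the 13 with the list named for GFP day 3 (whole list 21.6%) was again not possible. These overlaps of 0 restate the small GFP counts. The GFP day 0 peak (92739569 to 92739971, 403 bp), just inside the gene start, stood at 83.1% of its file and met no other list, as did 13.1% of that whole list; at least 1 such peak was found in 17.8% of tiles. If the crossed labels are right instead, the 13 peaks belong to GFP at day 3 and Runx2 at day 0 has 0 peaks here; which of these holds was not tested.

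Widths of the members were near those of their lists. The medians were 159 bp for chondrocyte Runx2 (whole list 136 bp), 166 bp for osteoblast Runx2 (186 bp), 186 bp for the list named for 3T3 Runx2 day 0 (190 bp), 217 bp for 3T3 Runx2 day 3 (213 bp), 136 bp for Foxa2 (120 bp) and 105 bp for Jun (134 bp). The widest chondrocyte Runx2 peak of the region was the one at the wide upstream site, with 440 bp, and the narrowest member of all was a day 3 peak of 24 bp (92615754 to 92615777).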

How the data were processed

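Each of 8 ChIP groups had 1 list of peak positions deposited by the authors, without a score, as the files show. The submitters' processing notes name mm9 as the build, and the tools Bowtie and DiffBind without their step. The caller, its threshold and control, and any pooling of replicate Runx2 libraries, were not given in those sources. Input, IgG and ATAC-seq libraries were not analysed here.

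Members were peaks whose centre lay in the stated interval; gene bounds came with that rule. Coordinates are 1-based. The region, lists and comparisons were chosen with earlier results of these data known. Sharing meant an overlap of 1 bp or more with a peak of the other list. Intervals are Wilson for shares and, for counts, exact Poisson (95%), and a count of 0 has a limit of 3 counts. Sites named were those of all 4 Runx2 lists, those with Foxa2 or Jun, the widest peak of each list and the peaks at each border; others were named after their values were seen. Peaks near the other collagen VI genes were not counted, since no annotation of this build was at hand. Overlap counts were checked against bedtools 2.31.1 (0 of 56 pairs differed) and on 20 simulated draws (0 with a wrong call). Python 3.11.15, NumPy 2.4.6, pandas 2.3.3, SciPy 1.17.1 and matplotlib 3.10.9 were used. Alternatives covered overlap, width, file order, the crossed lists, borders and joining.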

Additional observations from a re-analysis of the deposited data

How the results depend on the processing

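Of 222 alternative values, 193 stayed within the interval of the reported value (for counts, within 1.5 times it) and 29 moved beyond it. Among the 193 are 27 shares after removal of peaks that met a GFP list. They repeat the reported shares, because no Runx2, Foxa2 or Jun peak of the region met such a list. Exchanging the crossed lists likewise could not change 6 counts and 6 densities of the other lists. Overlap of 50% of the shorter peak and centres within 250 bp moved none of their values beyond these intervals. Neither did other ways of joining sites or chromosome 1 as background. Joining gaps up to 250 bp gave 36 sites against 45, however. Counting peaks within 500 bp once gave 24 peaks of 3T3 Runx2 day 3 against 31, so some of the 31 were close neighbours. The intervals are wide. At 50% overlap, however, Foxa2 in chondrocyte Runx2 fell to 20% against 40% as reported, chondrocyte Runx2 in Foxa2 to 12.5% against 25.0%, and day 0 in Foxa2 to 15.4% against 30.8%; day 0 in Jun was 15.4% there and 38.5% with centres within 250 bp, against 23.1%, and Jun in day 0 was 62.5% with centres within 250 bp, against 37.5%. A region widened by 50 kb on each side, added after seeing the data, moved none either. The chondrocyte density was then 9.01 times its list mean, against 9.40 as reported. Foxa2 density fell further, to 4.50 times its list mean against 6.14. Exchanging the crossed lists gave 0 peaks (0 times the mean) for 3T3 Runx2 day 0 and 13 (3.79 times) for GFP day 3, with 0 day 0 peaks lacking a day 3 peak and 0 day 3 peaks also at day 0. With the wider 50% of each list, shares were 0% between chondrocyte and osteoblast Runx2 in either direction, 0% for osteoblast Runx2 in both 3T3 Runx2 lists and of both in it, and 0% for osteoblast Runx2 in Jun, Jun in osteoblast Runx2, Jun in 3T3 Runx2 day 3 and the reverse. They were 10% for chondrocyte Runx2 in Jun, 20% and 40% for chondrocyte Runx2 in the 3T3 Runx2 lists of day 0 and day 3, and 33.3% for day 0 in chondrocyte Runx2. This setting kept only the osteoblast Runx2 peaks of 289 and 240 bp, as the list median was 186 bp. The 4 that met chondrocyte Runx2 were 62 to 177 bp wide and were removed, so 0% was fixed there. The wider 50% also removes possible partners. In the first 50% by file order, also added later, shares were 100% for osteoblast Runx2 in chondrocyte Runx2 and in both 3T3 Runx2 lists, 100% for day 0 in day 3 and in chondrocyte Runx2, 75.0% for day 0 in osteoblast Runx2, and 0% between day 0 and Foxa2 in either direction; GFP day 0 density was 0. The first 50% kept 3 osteoblast Runx2 peaks of the region, 4 of day 0, 4 of Foxa2 and 0 of GFP day 0. These shares thus rest on few peaks. Beyond such removal of peaks, the cause of these moves was not tested. Depth was not given and each group had 1 list. No paired analysis was possible because no result comes from replicate lists.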

Other observations

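The 200 kb tiles whose counts over the 8 lists were nearest to those of the Col6a3 tile, by Euclidean distance of log2(count + 1), lay on chromosome 2 from 33000000 to 33200000 (distance 1.30), chromosome 12 from 74800000 to 75000000 (1.54) and chromosome 1 from 71800000 to 72000000 (1.55). The Col6a3 tile had 16 chondrocyte Runx2 peaks, against 8, 10 and 10 in these tiles, and 31 3T3 Runx2 day 3 peaks, against 27, 21 and 17. It held 6 osteoblast Runx2 peaks, against 7, 4 and 4, and 13 of the list named for 3T3 Runx2 day 0, against 14, 14 and 11. It held 10 Foxa2 peaks, against 5, 6 and 11, and 8 Jun peaks, against 8, 9 and 7. In the list named for GFP day 3 all of them held 0. No gene is given for these tiles, since mm9 gene models were not used here, and counts in the same libraries share their depth.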
